A study of Mus musculus with 20 samples.

Results

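Muscle contractile genes were examined on custom cDNA arrays of the mouse prostate. The members were all array elements (spotted cDNA clones) annotated with a single gene symbol that begins with the name of an actin, alpha-actinin, myosin heavy or light chain, myosin light chain kinase, troponin, tropomyosin, transgelin, calponin, smoothelin or myosin-binding protein C, or of desmin, muscle creatine kinase, titin or a sarcoplasmic reticulum calcium pump. At most 3 of 20 values could be missing. Of 11552 elements, 50 met this rule, and they stood for 39 genes. All 50 were among the 11159 elements tested, and 48 of them had no missing value. By the fibre in which each gene is best known, 14 elements belonged to 11 skeletal muscle genes, 8 to 6 smooth muscle genes, 5 to 4 cardiac genes, 6 to 4 genes that several kinds of muscle share and 16 to 13 non-muscle genes, and the element of Mylk3 was in none of these classes. The members were chosen by name, so no measured value decided membership.

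The samples were prostates of 5 inbred mouse strains, 129X1/SvJ, C57BL/6J, DBA/2, BALB/c and FVB/NJ (the series' own text writes BALB/cAnCrl and DBA/2NCrl), with no engineered allele and no treatment. Mice were 8 to 9 weeks old, 12 of each strain, and RNA of the dorsal, lateral, ventral and anterior lobes of 3 mice went in equal amounts into each of 4 pools per strain, so that 20 arrays stood for 60 mice. Each pool was hybridised against 1 common reference, a mixture of RNA from every pool of every strain, with the pool in Cy5 on 2 arrays and in Cy3 on the other 2 arrays of each strain. A value is the log2 ratio of pool over reference, so 0 is the level of the mixture, and levels of different genes cannot be set against each other. Mice of BALB/c and DBA/2 came from another supplier than those of the other 3 strains, and for that split strain and supplier cannot be told apart. In RNA of whole glands, fewer cells of a type and less RNA per cell cannot be told apart either.

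Muscle contracts when myosin heads pull on actin filaments. In skeletal and cardiac fibres the troponin complex on tropomyosin sets this in motion when calcium binds, and the SERCA pumps encoded by the Atp2a genes return calcium to the sarcoplasmic reticulum. Fast and slow skeletal fibres use different troponin and light chain genes. Smooth muscle has no troponin and is switched on by phosphorylation of its myosin light chain through the kinase encoded by Mylk. The stroma around the ducts of the mouse prostate holds smooth muscle cells, whereas skeletal muscle lies outside the gland, in the wall of the urethra and in the pelvic floor.

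Arrays of 129X1/SvJ stood apart from the rest. The median correlation of a 129X1/SvJ array with the other arrays of its strain ran from -0.0705 to 0.0397 over all elements, against 0.188 to 0.437 on the arrays of the other 4 strains, and the median absolute deviation of the log2 ratios was highest on 129X1/SvJ pool 4, at 0.295. On that array 17 of the 50 member elements (34.0%) lay below all 19 other arrays, as did 18.8% of all elements. For contractile genes called with 129X1/SvJ as an extreme, and for the correlations that changed most, values are therefore given with and without it. Because every value is a ratio to a reference made of the same tissue, the ratios do not show how much of any cell type the pools held, and the prostate label could not be checked from absolute marker levels.

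Among the skeletal muscle genes, 6 genes of fast fibres had positive correlations with each other from pool to pool of the same strain. Of their 15 pairs 4 passed the test by Pearson's r, none of them with Atp2a1 or Tnnc2. Mylpf with Tnnc2 passed by Spearman's rho alone. Of the 6 genes, 5 did not pass the test for differences between strains. The 6 were Tnni2, Tnnt3 and Tnnc2, the inhibitory, tropomyosin-binding and calcium-binding subunits of fast troponin, Myl1 and Mylpf, the essential and regulatory light chains of fast myosin, and Atp2a1, the calcium pump of fast fibres (SERCA1). This group of 6 was set apart from the other 5 skeletal genes (Acta1, Ckm, Myh3, Tnnc1 and Tnni1) after their values had been seen, so what follows on the group describes these arrays. The comparison asked whether skeletal genes vary together between pools of 1 strain. For it, each strain's mean was taken from its 4 pools and the 20 deviations of 1 gene were correlated with those of another.

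Tnni2 showed the pattern most plainly. Its log2 ratios in pools 1 to 4 were -0.47, -0.47, 0.27 and -0.59 in C57BL/6J, -0.41, -0.18, 0.39 and 0.15 in 129X1/SvJ, -0.41, 0.17, -0.34 and 0.13 in FVB/NJ, -0.20, -0.28, -0.19 and 0.45 in BALB/c, and in DBA/2 0.46, -0.13, -0.10 and -0.08. A single pool was high in C57BL/6J (pool 3), BALB/c (pool 4) and DBA/2 (pool 1), with the other 3 pools of each strain close to each other and lower. In 129X1/SvJ pools 3 and 4 were the higher ones, and in FVB/NJ pools 2 and 4.

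Tnnt3 followed Tnni2 and had the widest swings of the group. Its log2 ratios in pools 1 to 4 were -0.25, -0.32, 0.77 and -0.95 in C57BL/6J, -0.71, 0.43, -0.37 and -0.22 in FVB/NJ, 0.18, -1.16, -0.16 and 0.92 in BALB/c. In DBA/2 they were 0.79, -0.04, 0.10 and -0.54. In 129X1/SvJ pool 3 had no value, and pools 1, 2 and 4 were at -0.75, -0.77 and 0.08. In C57BL/6J, FVB/NJ, BALB/c and DBA/2 the highest pool was the one in which Tnni2 was highest. Strain ranges overlapped throughout, with an SD within strains of 0.645 and strain means that spanned 0.56.

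The light chain genes and the pump were high in largely the same pools. Myl1 was at -0.32, -0.42, 0.47 and 0.0029 in C57BL/6J, -0.54, 0.13, 0.09 and -0.10 in 129X1/SvJ, -0.45, 0.16, -0.17 and -0.07 in FVB/NJ, 0.14, -0.10, -0.25 and 0.30 in BALB/c, and in DBA/2 0.15, -0.21, 0.04 and -0.33. Mylpf was at -0.25, -0.73, 0.13 and -0.03 in C57BL/6J, -1.63, -0.26, 0.27 and -0.04 in 129X1/SvJ, -0.24, -0.08, -0.62 and 0.005 in FVB/NJ, 0.09, -0.33, -0.13 and 0.44 in BALB/c, and in DBA/2 0.42, -0.07, -0.10 and 0.10. Mylpf stood far down in 129X1/SvJ pool 1, where Myl1 and Atp2a1 were also the lowest of their strain. Atp2a1 was at -0.01, -0.25, 0.30 and -0.37 in C57BL/6J, -0.46, -0.17, 0.03 and -0.02 in 129X1/SvJ, 0.14, 0.16, -0.15 and -0.13 in FVB/NJ, 0.14, -0.0052, 0.0008 and 0.08 in BALB/c, and in DBA/2 0.03, 0.0043, -0.12 and -0.08. Atp2a1 spanned the least of the group, and its highest value was again that of C57BL/6J pool 3.

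**Figure D1:**
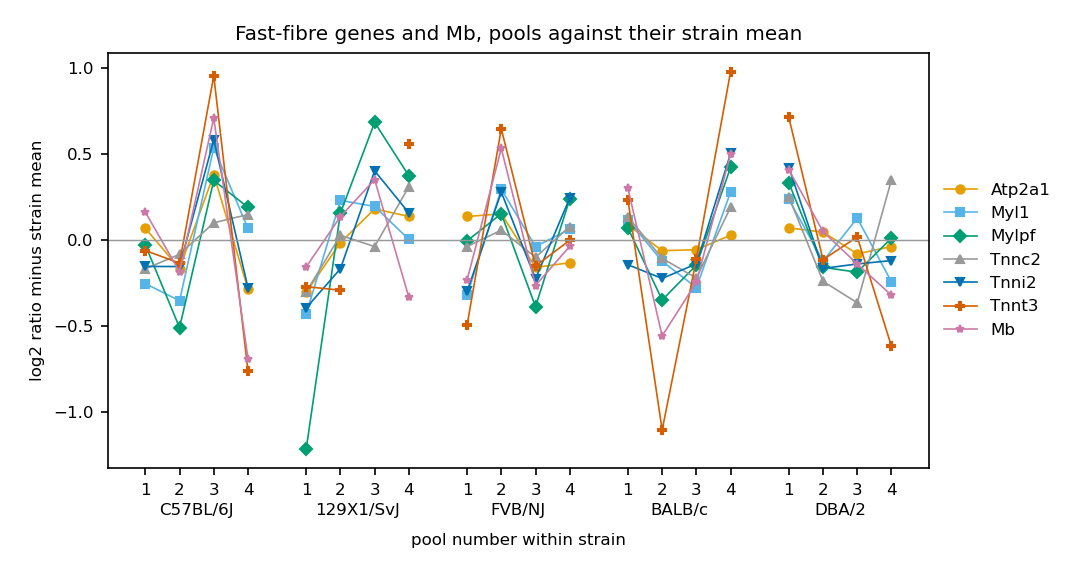
Deviation of each pool from its strain mean (log2 ratio, vertical axis) for the 6 fast-fibre genes and for Mb, by strain and pool number (horizontal axis). Each marker is 1 pool, lines only join the points of a gene within a strain, and Tnnt3 has no value in 129X1/SvJ pool 3. C57BL/6J pool 3, FVB/NJ pool 2, BALB/c pool 4 and DBA/2 pool 1 lie above 0 for all 6 fast-fibre genes.

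Pool by pool, all 6 genes lay above their strain mean in C57BL/6J pool 3 (mean deviation 0.48), BALB/c pool 4 (0.40), DBA/2 pool 1 (0.34), FVB/NJ pool 2 (0.26) and 129X1/SvJ pool 4 (0.26). The same held for 4 of the 5 genes with a value in 129X1/SvJ pool 3 (0.29). None of the 6 did in C57BL/6J pool 2 (-0.23), 129X1/SvJ pool 1 (-0.49), FVB/NJ pool 3 (-0.18), BALB/c pool 2 (-0.33) or BALB/c pool 3 (-0.16). C57BL/6J pool 3, BALB/c pool 4 and DBA/2 pool 1 each held the highest value of their strain for 5 of the 6 genes, and FVB/NJ pool 2 did so for 4. The high pools had both dyes, Cy5 in C57BL/6J pool 3, FVB/NJ pool 2 and 129X1/SvJ pool 4, and Cy3 in BALB/c pool 4, DBA/2 pool 1 and 129X1/SvJ pool 3.

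Over the 20 pools, 4 of the 55 pairs of skeletal genes passed the test by Pearson's r, all with positive r and all within the 6 fast-fibre genes. The test was a two-sided permutation of pools within strains (100000 shuffles, Benjamini-Hochberg adjusted p under 0.05 over the 55 pairs). For Tnni2 with Tnnt3, Pearson's r was 0.845 (permutation p = 4e-05, adjusted p = 0.0022, 19 pools) and Spearman's rho 0.825 (permutation p = 0.00016, adjusted p = 0.0088). For Mylpf with Tnni2, r was 0.725 (permutation p = 0.00038, adjusted p = 0.0104) and rho 0.711 (p = 0.00143, adjusted p = 0.0262). For Myl1 with Mylpf, r was 0.703 (permutation p = 0.00159, adjusted p = 0.0219) and rho 0.713 (p = 0.00223, adjusted p = 0.0307). For Myl1 with Tnni2, r was 0.760 (permutation p = 0.00141, adjusted p = 0.0219), while rho was 0.668 (p = 0.00607) and missed the threshold at an adjusted p of 0.0668. Mylpf with Tnnc2 passed by rho alone (rho 0.723, permutation p = 0.00078, adjusted p = 0.0214). The r of that pair was 0.626 (permutation p = 0.00465, adjusted p = 0.0511). Without the 2 pools farthest from the median of the first gene, r was 0.747 for Tnni2 with Tnnt3, 0.710 for Mylpf with Tnni2, 0.642 for Myl1 with Mylpf and 0.647 for Myl1 with Tnni2.

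Which pairs passed depended on single pools. Tnni2 with Tnnt3 passed in each omission given here, and for the other single pools only the number of passing pairs was taken. Without BALB/c pool 4 or without DBA/2 pool 1, that pair alone passed (r = 0.801 and 0.823, adjusted p = 0.0066 and 0.0077 by permutation). Without 129X1/SvJ pool 1 it passed with Mylpf and Tnni2 alone, whereas 7 pairs passed without FVB/NJ pool 1 and 8 without 129X1/SvJ pool 4. Without all 4 arrays of 129X1/SvJ, r for Tnni2 with Tnnt3 was 0.854, and 5 pairs passed, of which 2 joined Ckm, the creatine kinase of muscle, to Tnni2 (r = 0.837) and to Tnnt3 (r = 0.737). Mylpf with Tnni2 (r = 0.743) and Myl1 with Mylpf (r = 0.693) did not pass there, whereas Mylpf with Tnnc2 did (r = 0.651, adjusted p = 0.0467 by permutation).

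**Figure D2:**
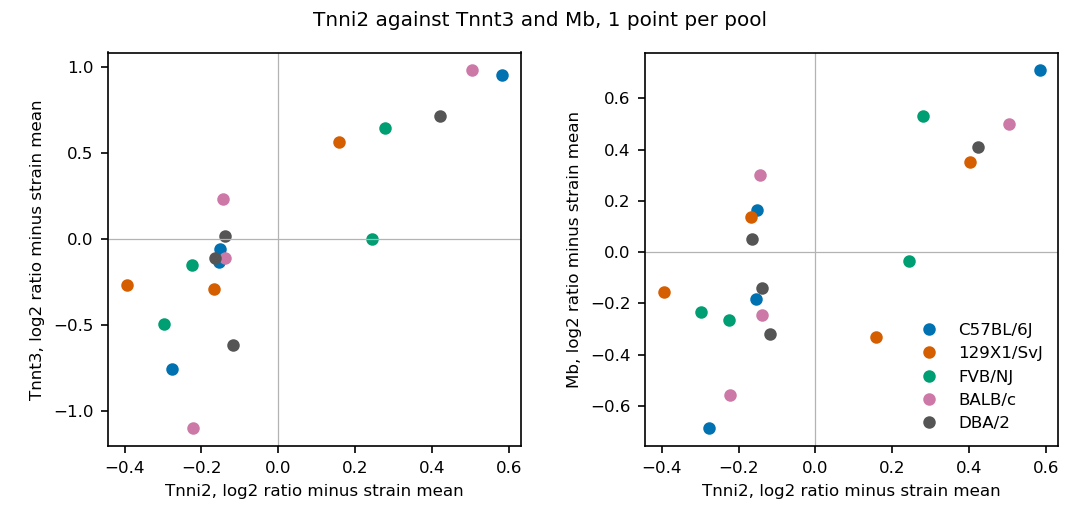
Deviation from the strain mean (log2 ratio) of Tnni2 on the horizontal axis against Tnnt3 (left) and Mb (right) on the vertical axis, with 1 point per pool coloured by strain, 19 pools for Tnnt3 and 20 for Mb. In both panels C57BL/6J pool 3, FVB/NJ pool 2, BALB/c pool 4 and DBA/2 pool 1 lie at the upper right, with 129X1/SvJ pool 4 for Tnnt3 and pool 3 for Mb, and r was 0.845 for Tnnt3 and 0.741 for Mb.

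As a description, all 15 pairs among the 6 fast-fibre genes had a positive r, between 0.307 and 0.845 with a median of 0.626. The median was 0.599 with the dye difference removed and 0.596 without 129X1/SvJ. Over all 57550356 pairs of the 10729 elements without a missing value, the median r was -0.002 and the 5th and 95th percentiles were -0.566 and 0.577. Over all 55 skeletal pairs the median was 0.165, with 36 positive. The 20 pools share the array design, the reference and amplification, and these correlations carry no test of the group. No 2 fast-fibre elements lay closer than 722 positions apart in the numbering of the array. Tnni2 and Tnnt3 are neighbours in the genome, on chromosome 7 with Lsp1 as the only protein-coding gene between them in the RefSeq table of GRCm38.p6, and Atp2a1, Mylpf and Ckm are on the same chromosome.

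Over the 5 strains the moderated F test of limma gave adjusted p values of 0.811 for Tnni2, 0.904 for Tnnt3, 0.985 for Myl1, 0.753 for Mylpf and 0.826 for Atp2a1, so that none passed the threshold of 0.1, and their strain means spanned from 0.16 (Myl1) to 0.56 (Tnnt3). Tnnc2 did pass and is described with the strain differences. None of the 6 elements passed the test of the dye.

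Promoters of fast-fibre genes are shown because r was positive for every pair of these genes, although of those printed only Mylpf with Myl1 passed the test by Pearson's r. Mylpf with Tnnc2 passed by Spearman's rho alone. They are the 250 bases before the transcription start that the RefSeq promoter table of GRCm38.p6 uses for the gene, 5′ to 3′ on the gene's strand, and that table has a window for Mylpf, Myl1, Atp2a1 and Tnnc2 among the 6. Capitals mark each CANNTG (the E-box, the core sequence that myogenic factors such as MyoD bind) in these 4, and in Acta1, skeletal actin, the CArG box, which serum response factor binds. For Tnnc2 and Acta1 the start used is the outer end of the gene in the RefSeq gene table, whereas for Mylpf, Myl1 and Atp2a1 it lies inside the gene's span there.
Mylpf, chr7:127211358-127211607, plus strand: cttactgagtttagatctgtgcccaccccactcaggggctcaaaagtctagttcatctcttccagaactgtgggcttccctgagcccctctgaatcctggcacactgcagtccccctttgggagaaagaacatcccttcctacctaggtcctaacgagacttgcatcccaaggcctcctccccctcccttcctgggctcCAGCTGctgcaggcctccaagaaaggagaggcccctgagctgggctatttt
Myl1, chr1:66945057-66945306, minus strand: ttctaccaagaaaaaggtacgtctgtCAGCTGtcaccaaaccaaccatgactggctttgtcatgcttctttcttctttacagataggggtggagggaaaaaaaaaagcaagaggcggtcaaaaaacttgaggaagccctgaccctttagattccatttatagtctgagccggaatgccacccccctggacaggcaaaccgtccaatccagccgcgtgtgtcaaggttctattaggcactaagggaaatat
Atp2a1, chr7:126463074-126463323, minus strand: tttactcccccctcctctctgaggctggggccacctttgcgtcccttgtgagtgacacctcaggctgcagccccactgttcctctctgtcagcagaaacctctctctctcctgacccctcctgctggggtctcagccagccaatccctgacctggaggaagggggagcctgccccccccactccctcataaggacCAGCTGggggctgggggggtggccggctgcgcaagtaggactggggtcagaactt
Tnnc2, chr2:164779735-164779984, minus strand: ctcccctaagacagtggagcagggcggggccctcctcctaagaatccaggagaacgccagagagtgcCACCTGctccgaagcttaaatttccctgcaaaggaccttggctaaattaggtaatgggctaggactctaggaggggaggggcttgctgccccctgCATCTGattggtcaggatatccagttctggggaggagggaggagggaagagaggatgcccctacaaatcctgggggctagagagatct
Acta1, chr8:123894776-123895025, minus strand: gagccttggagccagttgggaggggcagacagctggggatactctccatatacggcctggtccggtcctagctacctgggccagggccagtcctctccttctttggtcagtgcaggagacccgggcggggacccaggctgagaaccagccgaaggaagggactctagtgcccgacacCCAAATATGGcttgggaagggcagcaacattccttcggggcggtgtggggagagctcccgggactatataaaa
The E-box of Mylpf, Myl1 and Atp2a1 has the letters CAGCTG and begins 51, 224 and 55 bases before the start used, whereas Tnnc2 has 2 other forms, 183 and 88 bases before it, and the CArG box of Acta1 begins 73 bases before its own. All 3 motifs read the same on both strands as searched, and CAGCTG is one form of CANNTG. A CANNTG was present in 66.2% of 32851 such windows, CAGCTG in 13.0% and a CArG box in 1.47%. Of the 9 skeletal genes with a window, 9 held CANNTG, 6 CAGCTG and 1 a CArG box, and of 3 smooth muscle genes 1 held each. A gene counted if any window of it held the motif, so these counts and the shares of windows are unlike measures. A match of letters does not show that a factor binds there.

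The other skeletal genes did not share 1 pattern. Ckm was at -0.56, -0.44, 0.06 and -0.69 in C57BL/6J, 0.37, 0.23, 0.52 and -0.55 in 129X1/SvJ, -0.02, 0.0092, -0.27 and -0.0019 in FVB/NJ, 0.02, -0.12, 0.10 and 0.24 in BALB/c, and in DBA/2 0.26, 0.02, -0.14 and 0.06. Within C57BL/6J it was highest in pool 3, as most fast-fibre genes were, and within 129X1/SvJ it was lowest in pool 4, where they were above their strain mean. Its median r with the 6 fast-fibre genes was 0.301 over 20 pools and 0.675 without 129X1/SvJ, and with the smooth muscle genes 0.607 over 20 pools and 0.0274 without 129X1/SvJ. Tnnc1, the troponin C of slow and cardiac muscle, was at 1.75 in 129X1/SvJ pool 1 and between -0.23 and 0.44 in the other 19 pools. That pool was also the lowest for Mylpf, at -1.63, and the r of -0.774 between Mylpf and Tnnc1 (permutation p = 0.0451, adjusted p = 0.191) was -0.256 without 129X1/SvJ. Myh3, the embryonic myosin heavy chain, ran from -0.50 in 129X1/SvJ pool 3 to 0.54 in 129X1/SvJ pool 4. It is next to an element of Acta1 in the numbering of the array, with r = -0.844 over 20 pools and 0.0265 without 129X1/SvJ. Both elements of Tnni1, the slow troponin I, stayed between -0.56 and 0.47, and they did not move together (r = -0.0288 over the pools). The median r among these 5 genes was -0.0433.

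The smooth muscle genes had a high median r that rested largely on 1 array. Acta2 and Actg2 are the actins of smooth muscle, Myh11 is its myosin heavy chain, Myl9 its regulatory light chain, Mylk the kinase of that chain and Tagln an actin-binding protein. Over 20 pools the median r of their 15 pairs was 0.598, with 14 positive, and without the 4 arrays of 129X1/SvJ it was 0.275. Leaving out 129X1/SvJ pool 4 alone gave 0.291. Their median r with the fast-fibre genes was -0.122 over 20 pools and -0.0932 without 129X1/SvJ, with 4 of 36 pairs positive over 20 pools.

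**Figure D3:**
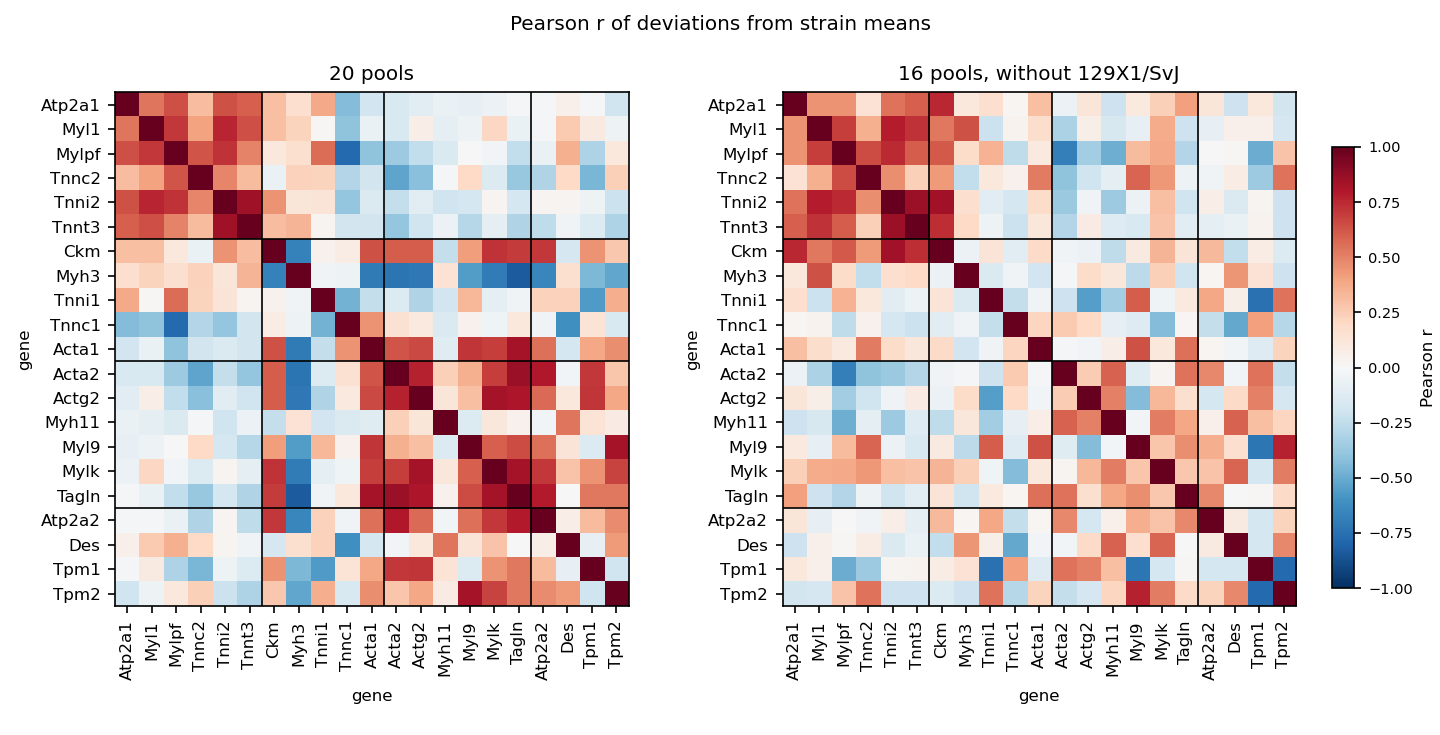
Pearson's r between genes over deviations from strain means (colour, from -1 in blue to 1 in red), for 20 pools (left) and for 16 pools without 129X1/SvJ (right). Black lines separate 6 fast-fibre genes, 5 other skeletal genes, 6 smooth muscle genes and 4 shared genes. The fast-fibre block is red in both panels (median r 0.626 and 0.596), whereas the smooth muscle block is paler on the right (median r 0.598 and 0.275).

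Tagln was the clearest case. It was at -0.01, 0.03, 0.14 and -1.59 in 129X1/SvJ pools 1 to 4, and between -0.42 and 0.32 in the 16 pools of the other strains. Acta2 was at -0.02, -0.09, 0.11 and -0.78 in 129X1/SvJ and between -0.22 and 0.34 elsewhere. Mylk was at 0.21, 0.36, 0.28 and -0.58 in 129X1/SvJ and between -0.36 and 0.29 elsewhere. In each of the 3 genes pool 4 of 129X1/SvJ lay below every other pool.

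On its first element Actg2 was at 0.33, 0.44, 0.42 and -0.51 in 129X1/SvJ, where pools 1 to 3 were above every pool of the other strains, and at -0.25, -0.19, -0.15 and -0.33 in C57BL/6J. The second element, annotated with the same sequence, was at 0.21, 0.75, 0.53 and -0.0035 in 129X1/SvJ. On it pool 1 lay below BALB/c pool 1 (0.35) and DBA/2 pool 4 (0.49), and pool 4 lay above every C57BL/6J pool. The r of the deviations of the 2 elements was 0.378, and 0.0241 without 129X1/SvJ. Myl9 was at 0.37, 0.55, 0.23 and -0.43 in 129X1/SvJ. Myh11 did not follow, at -0.03, -0.05, 0.18 and 0.18 in 129X1/SvJ, and its highest value, 0.58, was that of FVB/NJ pool 3. In all, 5 of 8 smooth muscle elements (62.5%) had their lowest value in 129X1/SvJ pool 4, as did 3 of 6 elements of the shared genes, 3 of 14 skeletal elements and 18.8% of all elements. Relative to the other 3 pools of 129X1/SvJ the median difference was -0.79 for smooth muscle elements, -0.69 for shared ones, 0.06 for skeletal ones and 0.02 for all elements.

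Genes shared by several kinds of muscle also differed in how low they were on that array. Of Des, the intermediate filament of muscle, 1 element was at 0.0071, 0.47, 0.61 and -2.78 in 129X1/SvJ and the other at -0.14, 0.41, 0.35 and 0.23, and the 2 elements, annotated with different sequences, did not follow each other (r = 0.0548 over the pools). Tpm2, beta-tropomyosin, was at 0.11, 0.16, 0.19 and -1.21 on 1 element and at -0.01, 0.21, 0.06 and -0.35 on the other. Both Tpm2 elements were lower in pool 4 than in pools 1 to 3, with the size of the drop unlike. Tpm1, alpha-tropomyosin, was at 0.14, 0.31, 0.22 and -0.39, and Atp2a2, the calcium pump of slow, cardiac and smooth muscle, at 0.16, 0.12, 0.38 and -0.54. The cause of the low values on this array was not tested. The mean log2 ratio of the 13 fibroblast and matrix markers measured was also lowest there, at -0.44, as was that of the 2 leukocyte markers, at -0.56. The means of the other marker lists were not lowest there. They were 0.25 for adipose tissue, 0.13 for neurons and glia, -0.03 for luminal epithelium, -0.19 for endothelium and -2.77 for seminal vesicle.

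**Figure D4:**
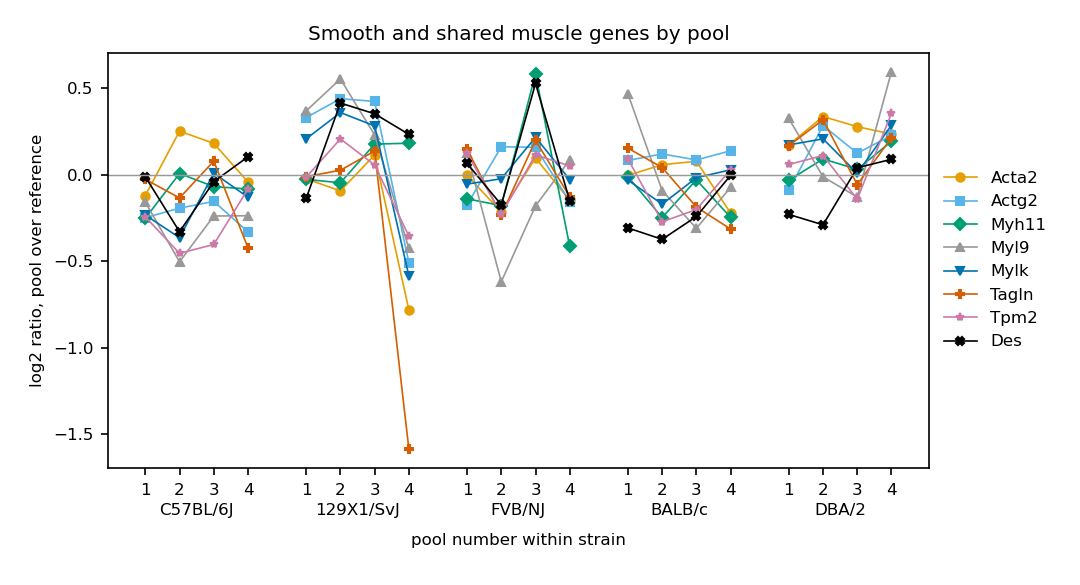
Log2 ratio of pool over reference (vertical axis) of 6 smooth muscle genes and of Tpm2 and Des, by strain and pool number (horizontal axis). Each marker is 1 pool and lines only join the points of a gene within a strain. In 129X1/SvJ pool 4, Tagln is at -1.59, Acta2 at -0.78 and Mylk at -0.58, below all other pools.

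No smooth or shared muscle gene passed the F test of limma over the 5 strains. The test, at an adjusted p of at most 0.1, called 1258 of 11159 elements, 11.3%, and 7 of the 50 member elements (14%, 11 at an unadjusted p under 0.05), for 5 of 39 genes, so the members' share was near that of all elements. By class it called 3 of 14 skeletal elements, 2 of 5 cardiac, 2 of 16 non-muscle, and 0 of 8 smooth (1 at an unadjusted p under 0.05) and 0 of 6 shared muscle elements (0). The adjusted p was 0.335 for Acta2, 0.430 for Actg2, 0.811 for Myh11, 0.470 for Myl9, 0.609 for Mylk, 0.719 for Tagln, 0.364 for Des, 0.812 for Tpm1, 0.371 for Tpm2 and 0.658 for Atp2a2. Without 129X1/SvJ pool 4, 11 genes passed, and the 6 added ones were Actg2 (adjusted p = 0.0068), Ckm (0.0178), Myh3 (0.0249), Mylk (0.0329), Myh10 and Myl12b. Without all of 129X1/SvJ, 6 genes passed, with Actg2 (adjusted p = 0.0847) and Myh10 among them and Tnnc2 no longer.

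Over the members, the highest strain mean exceeded the lowest by a median of 0.38, against 0.32 over all elements, and the median SD within strains was 0.236, against 0.224.

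Tnnt2, the cardiac troponin T, varied the most among strains. Its log2 ratios in pools 1 to 4 were 0.23, 0.27, -0.03 and -0.08 in C57BL/6J, -1.75, -1.23, -0.79 and -1.74 in 129X1/SvJ, -0.31, -0.73, -0.80 and -0.32 in FVB/NJ, -0.03, -0.11, -0.42 and -0.30 in BALB/c, and in DBA/2 1.65, 0.40, 0.48 and 0.81. All but 1 of the 129X1/SvJ pools lay below every pool of the other strains, and the remaining one was level with the lowest FVB/NJ pools, while every DBA/2 pool lay above all pools of the other strains. The mean was 0.84 ± 0.57 in DBA/2 and -1.38 ± 0.46 in 129X1/SvJ (SD, n = 4 pools each). DBA/2 was 4.63-fold above 129X1/SvJ, and the adjusted p of the F test was 3.23e-05. Against the mean of the other 4 strains, the log2 difference was -1.42 in 129X1/SvJ (SE 0.19, adjusted p = 5.99e-05 from limma) and 1.34 in DBA/2 (SE 0.19, adjusted p = 0.000208 from limma). With the arrays quantile normalized the contrast of 129X1/SvJ was no longer called (adjusted p = 0.0583), and without the 129X1/SvJ arrays the F test gave 0.00138. This gene also passed the test of the dye, with a mean of -0.44 in Cy5 and -0.04 in Cy3 pools (adjusted p = 0.0305 from limma), and the strains differed within each dye (adjusted p = 0.00253 for Cy5 pools alone and 0.00995 for Cy3 pools alone). Tnnt2 lies beside Tnni1 on chromosome 1, with 1 gene, Lad1, between them in the RefSeq table, and the r of their deviations was 0.336. In the numbering of the array Tnnt2 is next to Tnni2, with r = 0.337.

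Acta1, the actin of skeletal muscle, was highest in DBA/2 and lowest in BALB/c. Its first element was at -0.10, -0.15, -0.07 and -0.37 in C57BL/6J, 0.25, -0.16, -0.24 and -1.19 in 129X1/SvJ, 0.15, 0.16, 0.25 and 0.21 in FVB/NJ, -0.30, -0.47, -0.91 and -0.64 in BALB/c, and in DBA/2 0.77, 0.43, 0.50 and 0.80. All 4 DBA/2 pools lay above every other pool and all 4 BALB/c pools below every other pool except 129X1/SvJ pool 4 and C57BL/6J pool 4. The mean was 0.62 ± 0.19 in DBA/2 and -0.58 ± 0.26 in BALB/c (SD, n = 4), a 2.30-fold difference (F test adjusted p = 0.00408). Against the mean of the other strains, the log2 difference was 0.85 in DBA/2 (SE 0.17, adjusted p = 0.00576 from limma) and -0.65 in BALB/c (SE 0.17, adjusted p = 0.0441 from limma). The BALB/c contrast was lost on leaving out any 1 of 17 of the 20 pools (adjusted p up to 0.226), and was kept without C57BL/6J pool 4, 129X1/SvJ pool 1 or 129X1/SvJ pool 4.

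A second element of Acta1 gave the same order, with means of 0.62 ± 0.22 in DBA/2 and -0.53 ± 0.14 in BALB/c (F test adjusted p = 0.0149), and its contrast of DBA/2 with the others (adjusted p = 0.0208) was lost without DBA/2 pool 1, 3 or 4 (adjusted p up to 0.120). The third, annotated with the same sequence, did not pass (adjusted p = 0.446), and it held a value of -2.98 in 129X1/SvJ pool 4, where the others were at -1.19 and -1.32. Without 129X1/SvJ the adjusted p of the first element was 2.24e-05. Acta1 did not follow the fast-fibre genes (median r -0.184, and 0.180 without 129X1/SvJ) but followed the smooth muscle genes over 20 pools (0.679), though not without 129X1/SvJ (0.0863). Actin genes are alike in sequence, and how far transcripts of the other actins bound these spots was not tested.

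Tnnc2, the troponin C of fast fibres, was highest in 129X1/SvJ and lowest in C57BL/6J. It was at -0.61, -0.53, -0.34 and -0.29 in C57BL/6J, 0.07, 0.39, 0.33 and 0.68 in 129X1/SvJ, -0.13, -0.04, -0.20 and -0.02 in FVB/NJ, 0.09, -0.15, -0.27 and 0.14 in BALB/c, and in DBA/2 0.04, -0.45, -0.58 and 0.14. All C57BL/6J pools lay below all 129X1/SvJ pools, while DBA/2 pools overlapped with both, BALB/c pools with those of 129X1/SvJ, and FVB/NJ pools lay between. The mean was 0.37 ± 0.25 in 129X1/SvJ and -0.44 ± 0.15 in C57BL/6J (SD, n = 4), a 1.75-fold difference (F test adjusted p = 0.0208), and 129X1/SvJ was higher than the mean of the other strains by 0.57 (SE 0.13, adjusted p = 0.00938 from limma). That contrast was not called once arrays were scaled to an equal spread (adjusted p = 0.0802) or quantile normalized (0.0951). Without the 129X1/SvJ arrays the F test gave an adjusted p of 0.270. The element next to that of Tnnc2 in the numbering of the array, of Tnni3, correlated with it at r = 0.663, against a median of 0.276 over 10337 pairs with adjoining numbers.

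Actc1, the cardiac actin, passed the F test (adjusted p = 0.0240) but no contrast of 1 strain with the others. It was at -0.30, -0.03, -0.12 and -0.86 in C57BL/6J, 0.03, -0.19, -0.02 and -0.04 in 129X1/SvJ, -0.24, -0.30, 0.01 and -0.20 in FVB/NJ, 0.42, 0.29, 0.18 and 0.25 in BALB/c, and in DBA/2 0.37, 0.43, 0.35 and -0.05. All BALB/c pools and all but 1 DBA/2 pool were above every pool of C57BL/6J, 129X1/SvJ and FVB/NJ. BALB/c and DBA/2 mice came from another supplier than the rest, so for this pattern strain and supplier cannot be told apart. On Cy3 arrays alone the F test of limma gave an adjusted p of 0.138. The means were 0.28 ± 0.10 in BALB/c, 0.27 ± 0.22 in DBA/2 and -0.33 ± 0.37 in C57BL/6J (SD, n = 4). The other cardiac genes did not pass. Myl4, the atrial light chain, ran from -0.65 in 129X1/SvJ pool 4 to 0.53 in BALB/c pool 1 (adjusted p = 0.527), and Tnni3, the cardiac troponin I, from -0.38 to 0.44 (adjusted p = 0.313). A second element of Tnni3 had another order of strains (F test adjusted p = 0.449). Its mean was 0.32 in C57BL/6J and 0.03 in 129X1/SvJ, against 0.02 and 0.25 on the first.

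**Figure D5:**
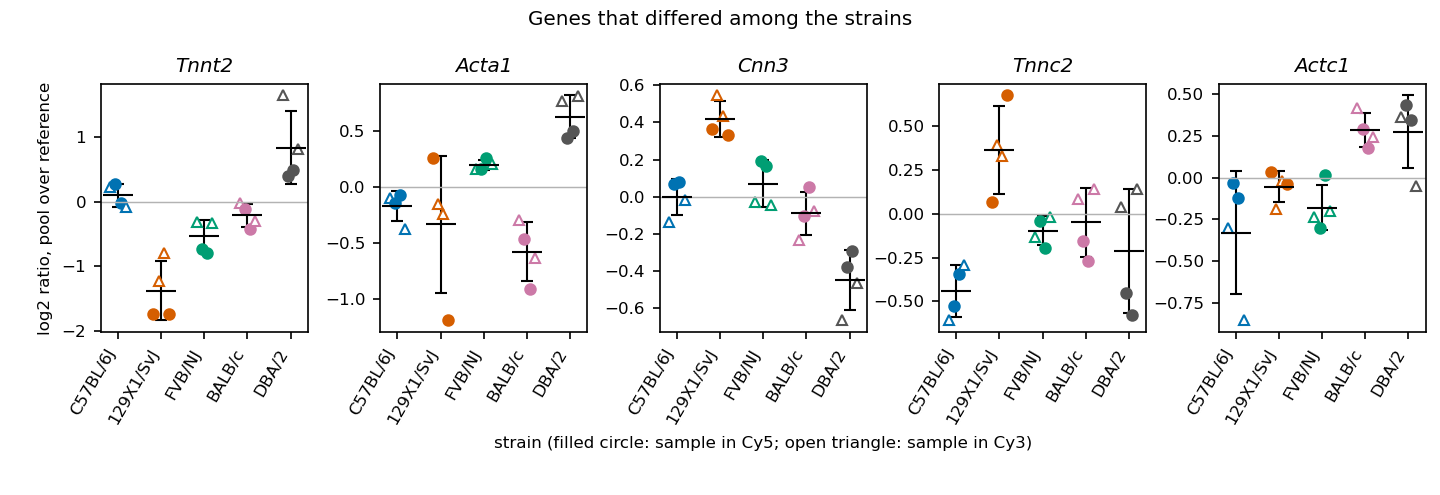
Log2 ratio of pool over reference (vertical axis) of the 5 genes past the F test, by strain (horizontal axis). Points are pools, filled circles with the sample in Cy5 and open triangles in Cy3, and bars are the mean and SD of 4 pools. Tnnt2 is lowest in 129X1/SvJ and highest in DBA/2, Cnn3 is the reverse, and Acta1 is highest in DBA/2.

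Of the 13 non-muscle genes, 1 passed the F test. Cnn3, the calponin found in many non-muscle cells, was at -0.13, 0.07, 0.08 and -0.02 in C57BL/6J, 0.36, 0.55, 0.43 and 0.33 in 129X1/SvJ, -0.03, 0.19, 0.17 and -0.04 in FVB/NJ, -0.23, -0.10, 0.05 and -0.08 in BALB/c, and in DBA/2 -0.66, -0.38, -0.29 and -0.47. The 129X1/SvJ pools lay above, and the DBA/2 pools below, all others. The mean was 0.42 ± 0.09 in 129X1/SvJ and -0.45 ± 0.16 in DBA/2 (SD, n = 4), and both elements passed (adjusted p = 0.000148 and 0.000131). Against the other strains, the log2 difference was 0.53 in 129X1/SvJ (SE 0.08, adjusted p = 0.000292 from limma) and -0.55 in DBA/2 (SE 0.08, adjusted p = 0.000394 from limma), and without 129X1/SvJ the F test gave 0.00856. For Tnnt2 the same 2 strains lay at the ends, the other way round. The remaining non-muscle elements, of the myosins, light chains, cytoplasmic actin and other genes, had strain means that spanned at most 0.57.

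In the contrasts of 1 strain with the mean of the rest (limma, adjusted p under 0.05), few members were called. In 129X1/SvJ, 3 elements were higher, both of Cnn3 and that of Tnnc2, and 1 was lower, that of Tnnt2, where 2.96% and 2.74% of all elements were called higher and lower. In DBA/2, 3 were higher, those of Tnnt2 and of 2 Acta1 elements, and 2 were lower, both of Cnn3, where 1.09% and 0.869% of all were called. In BALB/c, 0 were higher and 1, of Acta1, was lower, where 0.914% and 1.12% of all were called. No member was called in C57BL/6J, where 3.22% of all elements were called in either direction, or in FVB/NJ, where 2.55% were.

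The dye of the sample moved 11 of the 50 member elements in limma (adjusted p under 0.05), 3 higher and 8 lower in Cy5 than in Cy3, where 8.57% and 7.37% of all elements were. Of the skeletal, cardiac, smooth and shared classes these were Actg2 (its second element), Myl4, Myl9, Tnni1, Tnnt2 and Tpm2, all lower in Cy5. Myl9, for example, averaged -0.21 in Cy5 and 0.19 in Cy3 pools (adjusted p = 0.0135). The others, named after their values were seen, were Mylk3, which was in no class, and elements of the non-muscle Actg1, Myl6 and Myl6b. Mylk3 was also lower in Cy5, at -0.22 against 0.15 in Cy3 pools. Myl6b averaged 0.27 in Cy5 and -0.29 in Cy3 pools (adjusted p = 0.000714). The 2 elements of Myl6 went opposite ways, with -0.17 in Cy5 and 0.14 in Cy3 pools on 1 and 0.14 in Cy5 and -0.07 in Cy3 pools on the other, and over the pools their r was -0.115.

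Beyond the members, 13 of 42 other skeletal muscle genes on a wider list were measured, and 2 passed the F test. Pygm, the glycogen phosphorylase of muscle, was higher in DBA/2 (F test adjusted p = 0.00766), at 0.57, 0.37, 0.42 and 0.82, than in the other strains, where it lay between -0.38 and 0.36. Eno3, the enolase of muscle, was highest in 129X1/SvJ, at 0.16, 0.38, 0.48 and 0.50 (F test adjusted p = 0.0666, and 0.477 without 129X1/SvJ). Of 36 other smooth muscle genes 19 were measured and 3 passed, Tgfb1i1 (highest in 129X1/SvJ, adjusted p = 0.0372), Lpp (lowest in 129X1/SvJ, 0.0555) and Itga8 (highest in FVB/NJ, 0.0784). Without 129X1/SvJ the adjusted p was 0.194 for Tgfb1i1, 0.249 for Lpp and 0.0590 for Itga8, and without the single pool that mattered most it reached 0.148 for Eno3, 0.125 for Lpp and 0.188 for Itga8. Over the 13 skeletal genes the median r with the mean of the fast-fibre genes was 0.110, with 7 positive, and it was 0.0064 without 129X1/SvJ.

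Mb, myoglobin, the oxygen-binding protein of muscle, had the pattern most like the skeletal genes among 5781 named genes that are no members (r = 0.836 with the mean deviation of the 11 skeletal genes over 20 pools, 0.880 without 129X1/SvJ). It was at 0.09, -0.25, 0.64 and -0.76 in C57BL/6J, -0.25, 0.04, 0.26 and -0.43 in 129X1/SvJ, -0.33, 0.43, -0.37 and -0.14 in FVB/NJ, 0.45, -0.41, -0.10 and 0.65 in BALB/c, and in DBA/2 0.72, 0.37, 0.18 and -0.0049. Mb was highest in C57BL/6J pool 3, FVB/NJ pool 2, BALB/c pool 4 and DBA/2 pool 1, the same pools as Tnnt3. Its r was 0.827 with Tnnt3, 0.741 with Tnni2 and 0.663 with Ckm, but 0.161 with Tnnc2 and 0.259 with Acta1. The next by the same measure were Clu (r = 0.723), Yod1 (0.642), Aebp2 (0.637), Wfdc2 (0.635), Psph (0.604), Chrnb1 (0.599), Tsix (0.591), Nfkb2 (0.589) and Map2k6 (0.584). Chrnb1, a subunit of the acetylcholine receptor of muscle, is next to Tnnc2 in the numbering of the array.

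Marker genes of other cell types were also correlated with the mean of the fast-fibre genes. The medians of adipose, leukocyte and neuron and glia markers were above the 0.110 of the 13 other skeletal muscle genes, and the rest were below it. The median r was -0.235 over 7 measured genes of 12 for luminal epithelium, -0.085 over 7 of 8 for seminal vesicle, 0.155 over 6 of 13 for adipose tissue, 0.0488 over 13 of 16 for fibroblasts and matrix, -0.0961 over 5 of 10 for endothelium, 0.229 over 2 of 12 for leukocytes and 0.256 over 3 of 10 for neurons and glia. Without 129X1/SvJ these medians were, in the same order, -0.0548, -0.0674, 0.0383, 0.0058, -0.0120, 0.159 and 0.0668. That of the 13 other skeletal muscle genes was then 0.0064. The F test called 1 luminal marker, Epcam, highest in 129X1/SvJ and lowest in C57BL/6J (adjusted p = 2.85e-05, and 0.0084 without 129X1/SvJ), and 3 seminal vesicle markers, Svs2, Svs5 and Pate4, highest in BALB/c. It called 3 adipose markers (Fabp4, Car3 and Lpl), 3 of fibroblasts and matrix (Col1a1, Col6a3 and Mgp) and 1 of leukocytes (Lyz2), but 0 of endothelium (2 at an unadjusted p under 0.05) and 0 of neurons and glia (0). Of these, Lpl, Col1a1, Mgp and Lyz2 did not pass on leaving out some single pools, and Col1a1 did not pass without 129X1/SvJ (adjusted p = 0.106). Their part in the muscle gene values was not tested.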

How the data were processed

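The deposited values, per the authors' methods, are log2 ratios of pool over reference: median spot signal minus median background, spots not above background set to missing, print-tip loess within arrays. The authors' further removal of spots of low abundance was not applied, since intensities were not used here. Gene symbols came from the platform annotation, in which 8050 elements had 1 symbol, 672 several and 2830 were not listed. All 50 members matched the RefSeq gene table of GRCm38.p6, with symbols unchanged, and 3 elements with several symbols that fit the rule were not used. The members, classes, gene lists and tests were chosen with earlier results of these data known.

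The strains were compared by limma 3.58.1 (R 4.3.3) over the 11159 elements that lacked no more than 3 values and had 2 or more in every strain. limma took the place of the authors' SAM. Adjusted p values are Benjamini-Hochberg over all of these, with a moderated F test (at most 0.1), contrasts of 1 strain against the mean of the other 4 and a dye term (both under 0.05). Correlations used numpy 2.4.6 and scipy 1.17.1 in Python 3.11.15 on deviations from strain means. Named genes were all skeletal, cardiac, smooth and shared muscle members, genes of the non-muscle class and wider lists that passed a strain test, and the 10 genes most like the skeletal mean. Genes with several elements were represented by the one with the fewest missing values, then the lowest number. The limma fits and correlations were tested on simulated data. Alternatives covered missing values, array scaling, dye, replicate block, averaging of elements, array weights, 1 dye alone, and leaving out pools or 129X1/SvJ. The labels do not pair pool numbers across strains, and precision is limited by the number of arrays.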

Additional observations from a re-analysis of the deposited data

Results flagged for a closer look

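Within a strain, a pool was marked where its gap to the nearest of the other 3, divided by the range of the 4, exceeded Dixon's critical value for 4 samples. The 26 genes examined were the skeletal, cardiac, smooth and shared muscle genes and the non-muscle Cnn3. Of their 129 groups of 4 pools 8 were marked, and chance marks about 1 in 20 groups. Tnni2 was marked in C57BL/6J pool 3 (0.27, other pools -0.59 to -0.47), in BALB/c pool 4 (0.45, others -0.28 to -0.19) and in DBA/2 pool 1 (0.46, others -0.13 to -0.08). In 129X1/SvJ pool 4, Tagln (-1.59, others -0.01 to 0.14), Mylk (-0.58, others 0.21 to 0.36) and Actg2 (-0.51, others 0.33 to 0.44) were marked. The second element of Actg2 was at -0.0035 there, with the other pools at 0.21 to 0.75. In FVB/NJ pool 3, Mylk was high (0.22, others -0.05 to -0.02) and Ckm low (-0.27, others -0.02 to 0.01). The cause of these values was not tested.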

How the results depend on the processing

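The number of contractile genes past the F test, 5 with the non-muscle Cnn3 among them, was also 5 with each array centred, scaled or quantile normalized, with the pool number as a replicate block, and under either other filter on missing values, 6 or 7 passed with a dye term, elements averaged, array weights, Cy3 arrays alone or without 129X1/SvJ, and with Cy5 arrays alone 1 (Tnnt2) passed. Leaving out 1 pool gave 5 to 11, with 11 only without 129X1/SvJ replicate 4. Over all elements the F test called 1258, and 1956 with array weights, 817 on Cy3 arrays alone, 309 on Cy5 arrays alone, 1442 with the replicate block, and 1028 to 1747 without 1 pool. Calls of 1 strain against the others over the 50 member elements were 10, and 17 with a dye term, 12 with arrays scaled, 13 quantile normalized, 13 with the replicate block, and 8 to 22 without 1 pool, 22 being without 129X1/SvJ replicate 4. Scaling lost Tnnc2 in 129X1/SvJ, quantile normalization Tnnc2 and Tnnt2 in 129X1/SvJ, and both added Actc1 in C57BL/6J and Acta2 in DBA/2. The labels tie pool numbers to no shared animal or batch. For that reason the numbers were not taken to pair the pools. Deviations of pools with the same number correlated at a median of 0.183 (-0.33 to 0.421), against -0.0324 for pools with different numbers. Pools 1 and 4 were in Cy3 and pools 2 and 3 in Cy5 in every strain but 129X1/SvJ, where the dyes were reversed. The deviations hold the dye difference, so these correlations cannot show whether the numbers pair the pools.

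The median r over skeletal pairs was 0.165, and 0.281 with the dye removed, 0.268 with elements averaged, and 0.088 to 0.261 without 1 pool. For the fast-fibre genes it was 0.626, and 0.569 with strain means kept, 0.54 after quantile normalization, 0.577 by Spearman, and 0.496 to 0.66 without 1 pool. For smooth muscle genes it was 0.598, and 0.489, 0.463 and 0.412 under those 3 settings, 0.275 without 129X1/SvJ, and 0.291 to 0.65 without 1 pool. Pairs past the permutation test by Pearson's r were 4, and 7 with the dye removed, 1 to 8 without 1 pool. The cause of these changes was not tested, beyond fewer arrays where arrays were left out. These medians of r kept their sign under every setting run, but without 129X1/SvJ single values changed sign, such as r of Myh3 with Acta1 (0.0265, against -0.844 over 20 pools) and the median r of Acta1 with the fast-fibre genes (0.180, against -0.184). Intensities were not used, so signal over background could not be read, and 4 pools per strain limit what the tests can find.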
